A study of Mus musculus with 8 samples.

Results

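The genes described here are antisense genes nested within a host gene: rows of the count table whose whole span lay inside the span of a gene on the opposite strand and whose exons shared at least 50 bases with that host's exons, the mitochondrial chromosome left out. Of 54146 rows, 1735 met this rule by position alone, and the 838 with a mean count of at least 5 over the 8 libraries are described below. The other 897 had a lower mean, and 408 of them had no count in any library. Gm38336, Nrm and Cep112os1 sat just inside the minimum with a mean count of 5, and Gm15484 and Timp4 just outside it with 4.875. Counts chose the members only through this minimum, with no regard to treatment.

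The libraries came from ID8, a mouse ovarian cancer cell line, in an olaparib-resistant form carried by every group. Cells received DMSO (the solvent control), olaparib (an inhibitor of the DNA-repair enzyme PARP), EZM8266 (an inhibitor of EHMT1 and EHMT2, which methylate histone H3 at lysine 9) or both compounds for 72 hours, with 2 libraries per group. One treatment label, that of combination replicate 2, names EZM8267; its title places it with the combination, where it was left. The olaparib-sensitive parent line is not among the samples, no dose is given in the sources used here, and nothing says whether the replicates were separate cultures, so p-values measure only the spread between these libraries. Total RNA was depleted of ribosomal RNA before library construction.

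Antisense genes nested in a host are read from the other DNA strand of the same stretch of chromosome, and many are long noncoding RNAs known only from an annotated transcript model. A stranded library tells the genes apart, because dUTP marks one cDNA strand and the read pair keeps the direction of the transcript. The kit used here marks strand in that way, with the first read antisense to the RNA, whereas the authors' table was counted for reads in sense. A nested row therefore counts fragments that lie on the strand of the host transcript, and the row of a host counts fragments on the strand of the nested gene. Each value below is given under the name of the nested row and read as fragments of the host over the bases that the nested exons cover, host introns included where nested exons reach into them.

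The sequences that follow show what such rows covered in 5 of the hosts whose rows passed an EZM8266 test described below. They were read from the GENCODE M21 transcript of the nested gene, build mm10 (GRCm38), and are written 5′ to 3′ on the host's strand, with capitals for coding exon of the host and lower case for bases outside it. The lower case is host intron, except that the 21 such bases of the first Gm29233 stretch also lie in an exon of a noncoding Thbs1 transcript. Gm36099 covered the start of a coding exon of Serpinb9b at chr13:33032856-33032955 on the plus strand, Gm42686 one of Abcb1a at chr5:8732232-8732331 on the plus strand, and Gm11149 one of Ncam1 at chr9:49567441-49567540 on the minus strand. 4930444A19Rik covered the end of a coding exon of Ankrd44 at chr1:54766290-54766389 on the minus strand. The exons of Gm29233 lay over coding exons of Thbs1 at chr2:118123451-118123560 and chr2:118123877-118124047 on the plus strand. In the first 3 windows the intron ends in ag before the capitals and in the fourth it begins with gt after them, the usual letters at intron ends; each nested exon thus ran across an intron-exon boundary of its host.
Gm36099 in Serpinb9b: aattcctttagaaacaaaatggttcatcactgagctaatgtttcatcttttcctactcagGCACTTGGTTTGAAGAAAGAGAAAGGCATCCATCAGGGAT
Gm42686 in Abcb1a: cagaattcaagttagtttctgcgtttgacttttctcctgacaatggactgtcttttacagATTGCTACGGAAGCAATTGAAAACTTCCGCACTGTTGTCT
Gm11149 in Ncam1: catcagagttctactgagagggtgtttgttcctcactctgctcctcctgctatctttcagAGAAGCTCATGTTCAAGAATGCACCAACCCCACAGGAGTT
4930444A19Rik in Ankrd44: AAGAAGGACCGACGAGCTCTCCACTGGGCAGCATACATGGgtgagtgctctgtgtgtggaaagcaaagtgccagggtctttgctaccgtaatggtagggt
Gm29233 in Thbs1, plus-strand exon at the lower position: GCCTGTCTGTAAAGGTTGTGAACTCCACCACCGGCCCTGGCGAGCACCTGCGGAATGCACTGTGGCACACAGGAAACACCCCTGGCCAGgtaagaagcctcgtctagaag
Gm29233 in Thbs1, plus-strand exon at the higher position: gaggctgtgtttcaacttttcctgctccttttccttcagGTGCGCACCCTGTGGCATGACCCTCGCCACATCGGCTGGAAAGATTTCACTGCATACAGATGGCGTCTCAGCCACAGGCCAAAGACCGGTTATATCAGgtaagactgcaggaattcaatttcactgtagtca

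The members were mainly noncoding by annotation. GENCODE M21 gave 401 as antisense, 116 as protein-coding, 76 as lincRNA, 73 as TEC (transcript models still to be tested by experiment), 53 as miRNA, 37 as processed pseudogenes and 34 as processed transcripts. They lay in 785 hosts, and 756 of the 838 had a protein-coding host. In 42 hosts there were 2 or more members, 95 rows in all, and these share a host transcript. The shared exon bases lay mainly in coding sequence of the host for 371 rows (44.3%), in its untranslated regions for 248 (29.6%) and in noncoding exons for 219 (26.1%). The overlap ran from 51 to 5142 bases with a median of 286.5. In 211 rows every exon base lay over host exon, whereas in 320 rows under 25% did and the remainder lay over host intron. Along the host from 5′ to 3′, 133 rows were centred in the first of 4 equal stretches, 178 in the second, 230 in the third and 297 in the last.

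Counts were far from even between the members. The median member had a mean count of 57.2, with quartiles of 18.75 and 194. The highest belonged to AY036118 in Gm42418, a row on the ribosomal RNA locus of chromosome 17, with 22286 to 113967 CPM (counts scaled to library size, here with edgeR's TMM factors). Its replicates differed as much as its groups: olaparib replicate 1 was the highest and EZM8266 replicate 2 the lowest, while olaparib replicate 2 was near DMSO replicate 1. Gm20721 in Gnas, the gene of the stimulatory G protein alpha subunit, was steady at 13571 to 15144 CPM in all 8 libraries. Its exons lay at chr2:174330319-174346712, with 99.0% of their bases over Gnas exons. Gm17300 in Snhg3, a host transcript of small nucleolar RNAs, varied from 3533 to 6536 CPM, with both DMSO libraries (6387 and 6536) above the other 6, which reached 5905. Its difference from DMSO was not called for any treatment, with an edgeR adjusted p of 0.854 for EZM8266 alone. The 10 members highest in CPM also included rows in Malat1, H3f3a, Zfp106, Eif3d and Kpnb1, and none of the 10 was called for any treatment.

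Libraries held 973382 to 1680974 assigned counts, 4.54% to 5.40% of their fragments, so 3 counts, the most that a count of 0 allows, corresponded to 1.85 to 3.02 CPM. For replicates 1 and 2, the nested rows held 19.3% and 21.4% of all counts after DMSO, 24.2% and 20.5% after olaparib, 20.2% and 21.9% after EZM8266, then 22.04% and 21.1% after both compounds. The 95% binomial interval (Wilson) of DMSO replicate 1 was 19.3% to 19.4%, and those of the others were as narrow. These intervals cover counting error only. With EZM8266 the share was 21.3% ± 0.84 (SD, n = 4) and without it 21.3% ± 2.06 (SD, n = 4); the 2-sided exact permutation test gave p = 1, where the smallest p possible was 0.0286. An alternative chosen after seeing the data left out the rows AY036118 and Gm42418 of the ribosomal RNA locus. The shares were then 14.2% to 19.4% of all counts. These 2 rows left the nested counts only. The total still held them and CT010467.1, the host of Gm42418, with 309271 counts in olaparib replicate 1 and 99032 in EZM8266 replicate 2. Olaparib replicate 1 was then the lowest library and not the highest, a rank that depends on this total. On the same total the difference with minus without EZM8266 moved from -0.033 to 1.43 percentage points (2-sided exact permutation p = 0.257). Gm10800, a row that is no member, had 23746 counts in DMSO replicate 1 and 22517 in olaparib replicate 2, against 1182 to 4277 elsewhere. These 2 libraries thus stood apart, and results that rest on them are given without them too. Without both, the difference in the share of all nested rows, with minus without EZM8266, was -1.49 percentage points. Library numbers 33 to 36 hold all EZM8266 libraries and 41 to 44 all others, so the block of library numbers and EZM8266 cannot be told apart. No gene of the ovarian, fibroblast, leukocyte or endothelial marker lists was a host of a member, so the labelled cell type could not be checked through these rows.

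For most members the nested row held more counts per kilobase of its exons than the host's own row did. This was so for 759 of the 838, by at least 10 times in 655, with a median ratio of 75.5. The minimum on the nested row's count favours this direction; among the 699 nested rows of any count whose host row had a mean of at least 5, the nested row was the denser in 461 (66.0%). The other 79 members had the denser host row, and these were 48 of 116 protein-coding nested genes (41.4%) against 31 of 722 others (4.29%). Rpl35, a protein of the large ribosomal subunit, had a mean count of 37, and the row of its host Wdr38 had 6348. The histone genes Hist2h3b and Hist2h2bb had mean counts of 31.1 and 37.2, and their host Gm20628 had 6355. Hif1a, the oxygen-regulated transcription factor, had 14.75 against 2097 for its host Gm15283. Read by strand, the counts of these host rows are fragments on the strand of the nested gene, listed under the name of the host, and the lower counts of the nested rows are fragments on the strand of the host.

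**Figure D1:**
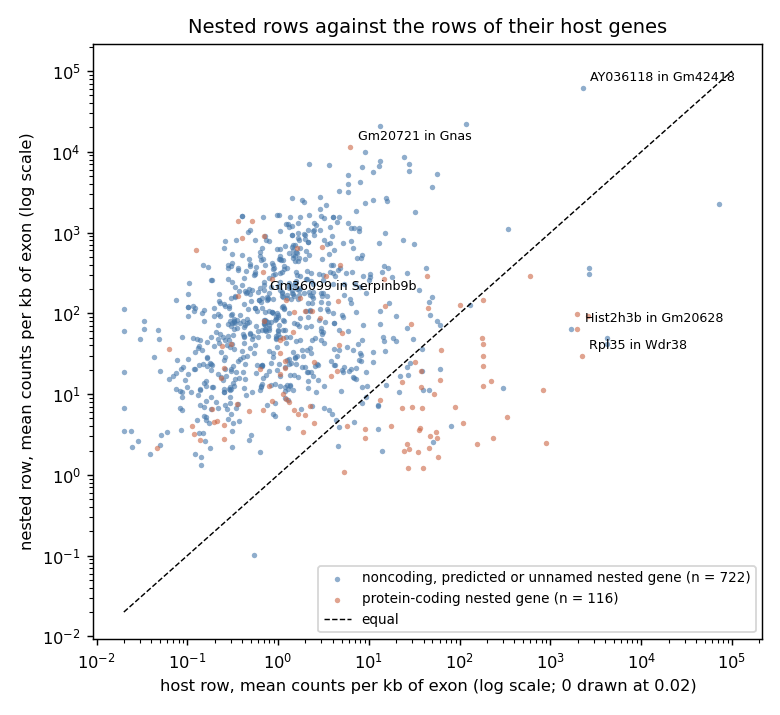
Mean counts per kilobase of exon of each nested row (vertical axis) against the row of its host (horizontal axis), both on log scales, over 8 libraries; each point is 1 of 838 nested rows and the dashed line marks equal values. Points above the line are the 759 rows denser than the host row, and the 48 protein-coding nested genes below it include Rpl35 and Hist2h3b.

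Rows with more of their exon over host exon were denser. The median was 17.6 counts per kilobase for the 129 rows with under 10% of their exon bases over host exons, 41.3 for 191 rows at 10 to 25%, 58.9 for 163 rows at 25 to 50%, 98.8 for 144 rows at 50% to under 100%, and 215 for the 211 rows at 100%. Spearman's rho across the 838 rows was 0.43, given as a description of rows that share libraries and in part hosts. Row length moved with it, from a median of 2669 exon bases in the lowest class to 368 in the highest. Among the 310 rows of 500 to 1500 exon bases the medians still ordered from 40.6 to 108, with a rho of 0.20. The lowest overlaps are given among members with a mean count of at least 50, so that they held counts was set by this choice. Gm43361 in Atp2a2, the calcium pump of the endoplasmic reticulum, had 1.77% of its exon bases over host exons and 550 to 669 CPM. Gm10389 in Rai14 had 2.05% and 456 to 564 CPM. Gm26742 in Zfp608 had 2.37% and 57.7 to 85.4 CPM, and 1700037C18Rik in Gm20695 had 2.94% and 253 to 320 CPM. Nearly all exon bases of these rows lay over host intron.

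**Figure D2:**
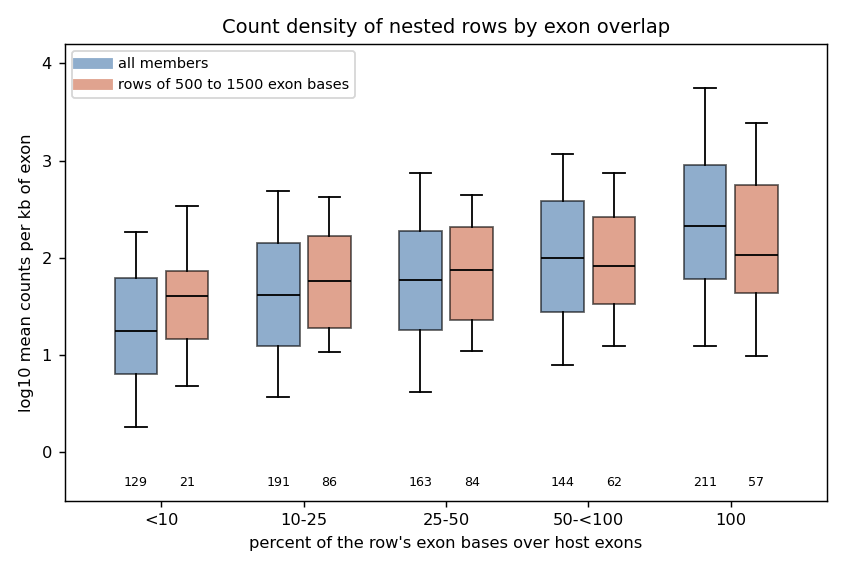
Log10 mean counts per kilobase of exon (vertical axis) by the percent of a row's exon bases that lie over host exons (horizontal axis), for all 838 members and for the 310 of 500 to 1500 exon bases. Lines in boxes are medians, boxes quartiles and whiskers the 5th and 95th percentiles, with the number of rows beneath; the median rises from the lowest to the highest class in both sets.

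A family of short rows stood out by its density and is described as chosen after its values were seen. Of the 53 members annotated as miRNA, 18 lay inside 18 genes of histone H2A, a core component of the nucleosome, and 12 of these were on chromosome 13. Each was 138 to 144 bases long, and read on the host's strand the 18 had 10 distinct sequences, with at least 94.2% identity to Gm44454 among the 12 rows of 138 bases. Capitals below mark bases that differ from Gm44454, in reference sequence on the host's strand (build mm10, GENCODE M21). Gm44454 lies at chr13:21753445-21753582 with its host Hist1h2ak on the minus strand, Gm44484 at chr13:23751378-23751515, Gm44313 at chr11:58954983-58955120 and Gm47313 at chr3:96245826-96245963, the last 3 with hosts on the plus strand. They are shown because near-identical copies decide how far the counts can be split between hosts.
Gm44454 in Hist1h2ak: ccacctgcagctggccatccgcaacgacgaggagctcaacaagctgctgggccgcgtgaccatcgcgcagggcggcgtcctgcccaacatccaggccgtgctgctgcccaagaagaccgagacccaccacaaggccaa
Gm44484 in Hist1h2ab: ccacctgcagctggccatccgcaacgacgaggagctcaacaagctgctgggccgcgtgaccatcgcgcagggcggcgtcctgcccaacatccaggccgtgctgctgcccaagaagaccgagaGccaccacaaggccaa
Gm44313 in Hist3h2a: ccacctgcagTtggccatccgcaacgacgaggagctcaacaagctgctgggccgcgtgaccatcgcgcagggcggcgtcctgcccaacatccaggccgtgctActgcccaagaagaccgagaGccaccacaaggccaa
Gm47313 in Hist2h2aa1: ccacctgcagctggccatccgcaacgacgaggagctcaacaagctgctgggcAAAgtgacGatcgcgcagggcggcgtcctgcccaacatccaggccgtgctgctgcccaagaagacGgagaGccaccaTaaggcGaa

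8 of the rows differed from Gm44454 by 1 base, so the counts of single copies are uncertain and the 18 are given as a sum. The count columns are labelled uniq, so reads that fit several copies may be missing from the rows and from the sum. Their mean counts ran from 31.9 to 3024, and their median was 3480 counts per kilobase against 366 for the other miRNA rows and 63.7 for the members outside that class. Reads were 150 bases long and these rows 138 to 144, whereas the median over all members was 967.5 exon bases. Densities of rows so unlike in length are not on equal terms, and the part of length was not tested. Summed, the 18 rows held 10877 and 9662 CPM after DMSO, 9858 and 10373 after olaparib, 8592 and 12977 after EZM8266, then 10145 and 10835 after both compounds. The EZM8266 group had both the lowest and the highest library, so it overlapped every other group. The rows of the 18 hosts together had 134 to 430 counts per library, against 10072 to 15646 for the nested rows.

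The comparisons across treatments used edgeR's quasi-likelihood F test on all 6379 rows that passed the filter on low counts, with p-values adjusted over all of them by the Benjamini-Hochberg method; a row is called where its adjusted p is under 0.05. Of the 838 members 765 passed that filter and 73 did not, none of the latter above a mean count of 9. A row can pass through the group where it is high, so the counts below describe the tested rows only. The median tested member had a mean count of 70.75, and the median of all tested rows was 24. EZM8266, the combination and olaparib were each set against the same DMSO libraries. The average of EZM8266 against DMSO and of the combination against olaparib, called the EZM8266 average below, used all 8 libraries.

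With olaparib alone, no nested row passed the test in these resistant cells. edgeR called 0 of 765 members and 0 of 6379 rows (0%), and DESeq2 called 0 members. At an unadjusted edgeR p under 0.05 there were 17 members, and 117 of all rows (1.83%). The median log2 fold change of the members was 0.05 against -0.01 for all rows, with 492 members above 0 and a median SE of 0.22. The EZM8266 difference with olaparib was set against that without it (the interaction), and no member was called. Here edgeR called 0 of 765 (0% of all rows) and DESeq2 called 0. Under an unadjusted edgeR p of 0.05 there were 11 members, and 103 of all rows (1.61%).

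With EZM8266 alone 4 members were called, 0.523% of those tested, where 0.204% of all rows were. Of these, 3 were higher (0.188% of all rows were) and 1 lower (0.0157% of all rows were). With the combination 4 were called, 0.523% of those tested, where 0.219% of all rows were. Of these, 3 were higher (0.188% of all rows were) and 1 lower (0.0314% of all rows were). At an unadjusted edgeR p under 0.05 there were 70 members with EZM8266, 9.15% of those tested, where 5.72% of all rows were. With the combination there were 52, 6.8% of those tested, where 4.89% of all rows were. In both comparisons, which share the DMSO libraries, the called rows in Serpinb9b, F13a1 and Abcb1a rose and the one in Thbs1 fell. The EZM8266 average called 11 members, 9 higher (0.596% of all rows) and 2 lower (0.0627%), which is 1.44% of the members tested where 0.658% of all rows were called. At an unadjusted edgeR p under 0.05 it gave 73 members, 9.54% of those tested, where 6.77% of all rows were. The members had more counts than the rows as a whole, as given above; the part of depth in that difference was not tested. All 4 libraries with EZM8266 lay above the 4 without in 54 members (7.06%; 3.32% of all rows) and below them in 12 (1.57%; 2.02% of all rows). The median log2 fold change of the members in the EZM8266 average was 0.06, and of all rows -0.02.

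**Figure D3:**
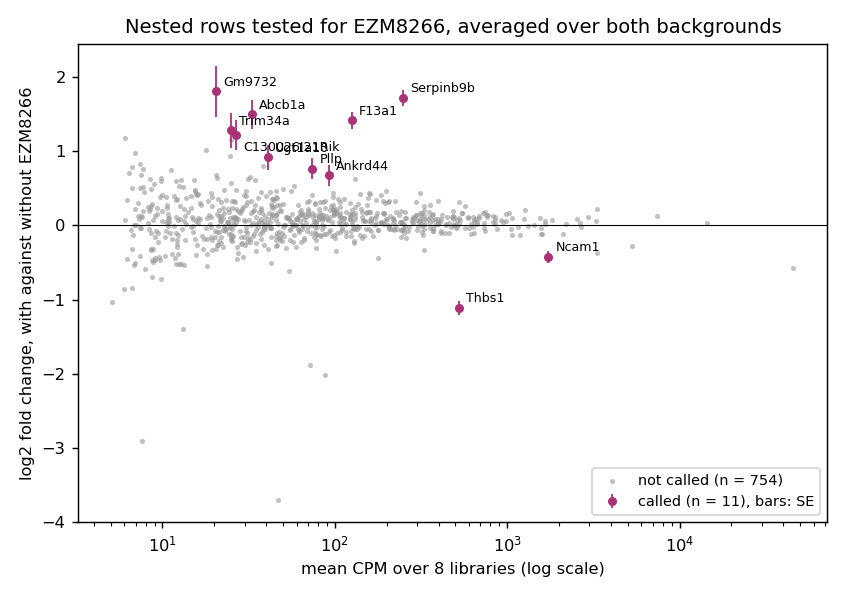
Log2 fold change of the EZM8266 average (vertical axis) against mean CPM on a log scale (horizontal axis) for the 765 nested rows tested; called rows carry their host's name and bars of 1 SE. The 9 called above 0 and the 2 below stand apart from most rows of like abundance, and the far lower uncalled points are rows in Gm26870.

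The rise with the smallest adjusted p was in Serpinb9b, a clade B serpin, one of the intracellular inhibitors of serine proteases. Gm36099, at chr13:33031202-33034560 with 278 bases (15.5% of its exons) over Serpinb9b exons, had 110.7 and 92.0 CPM with DMSO, 142.7 and 120.3 with olaparib, 361.6 and 440.6 with EZM8266, then 365.6 and 354.8 with both. The 4 libraries with EZM8266 were all higher than the 4 without, with no overlap. The log2 fold change was 1.99 ± 0.16 (SE) for EZM8266 (edgeR adjusted p = 7.44e-05), 1.84 ± 0.16 for the combination (edgeR adjusted p = 0.000199) and 1.72 ± 0.11 for the EZM8266 average (edgeR adjusted p = 5.65e-06). The row was called under every alternative tried in all 3 comparisons. Serpinb9b's own row had a mean count of 2.25.

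F13a1 encodes the A subunit of coagulation factor XIII, the enzyme that crosslinks fibrin. Gm30489, at chr13:36963239-36973329, shared only 74 exon bases (4.24%) with it, so most of the row lay over F13a1 intron. It had 61.7 and 69.2 CPM with DMSO, 69.2 and 73.2 with olaparib, 174.0 and 196.9 with EZM8266, then 189.4 and 170.6 with both. Again every library with EZM8266 was higher than every library without. The rise was 1.49 ± 0.16 for EZM8266 (edgeR adjusted p = 0.000637), 1.45 ± 0.16 for the combination (edgeR adjusted p = 0.000947) and 1.42 ± 0.11 for the EZM8266 average (edgeR adjusted p = 3.01e-05). This call too held under every alternative.

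Abcb1a encodes a P-glycoprotein, a membrane pump that exports many drugs from cells. Gm42686, at chr5:8731661-8735768 with 553 bases (13.5%) over its exons, had 15.7 and 16.7 CPM with DMSO, 15.4 and 21.1 with olaparib, 49.9 and 43.8 with EZM8266, then 48.3 and 52.6 with both. The groups with EZM8266 did not overlap those without. The EZM8266 average was 1.50 ± 0.19 (edgeR adjusted p = 0.00223) and was called under every alternative. EZM8266 alone gave 1.53 ± 0.27 (edgeR adjusted p = 0.0444) and lost the call without any 1 of the 8 libraries, with adjusted p from 0.0618 to 0.464. It was also lost with replicate number as a block (0.0797), with only the 2 groups compared (0.379) and in DESeq2 (0.0983). The combination gave 1.63 ± 0.27 (edgeR adjusted p = 0.0325) and lost it without any 1 DMSO or combination library, with adjusted p from 0.17 to 0.281. Without the 2 libraries that stood apart the adjusted p was 0.609 for EZM8266 and 0.375 for the combination.

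Thbs1 encodes a thrombospondin, a secreted glycoprotein of the matrix that acts on adhesion and vessel growth. Gm29233, at chr2:118123451-118124047, had 208 of its exon bases (74.0%) over Thbs1 exons. In the 2 stretches printed above these are 89 and 98 coding bases and the 21 bases of the noncoding transcript's exon. It had 743.3 and 708.3 CPM with DMSO, 681.2 and 735.9 with olaparib, 303.4 and 397.9 with EZM8266, then 312.2 and 316.8 with both. Every library with EZM8266 was lower than every library without. It fell by 1.05 on the log2 scale with EZM8266 (SE 0.14, edgeR adjusted p = 0.00487), by 1.21 with the combination (SE 0.14, edgeR adjusted p = 0.0015) and by 1.11 in the EZM8266 average (SE 0.10, edgeR adjusted p = 6.71e-05). The EZM8266 call was lost when only the 2 groups compared were fitted (adjusted p = 0.113) and without the 2 libraries that stood apart (adjusted p = 0.084). Thbs1's own row, on the other strand, had raw counts of 62 and 129 with DMSO, 86 and 59 with olaparib, 41 and 16 with EZM8266, then 20 and 22 with both.

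**Figure D4:**
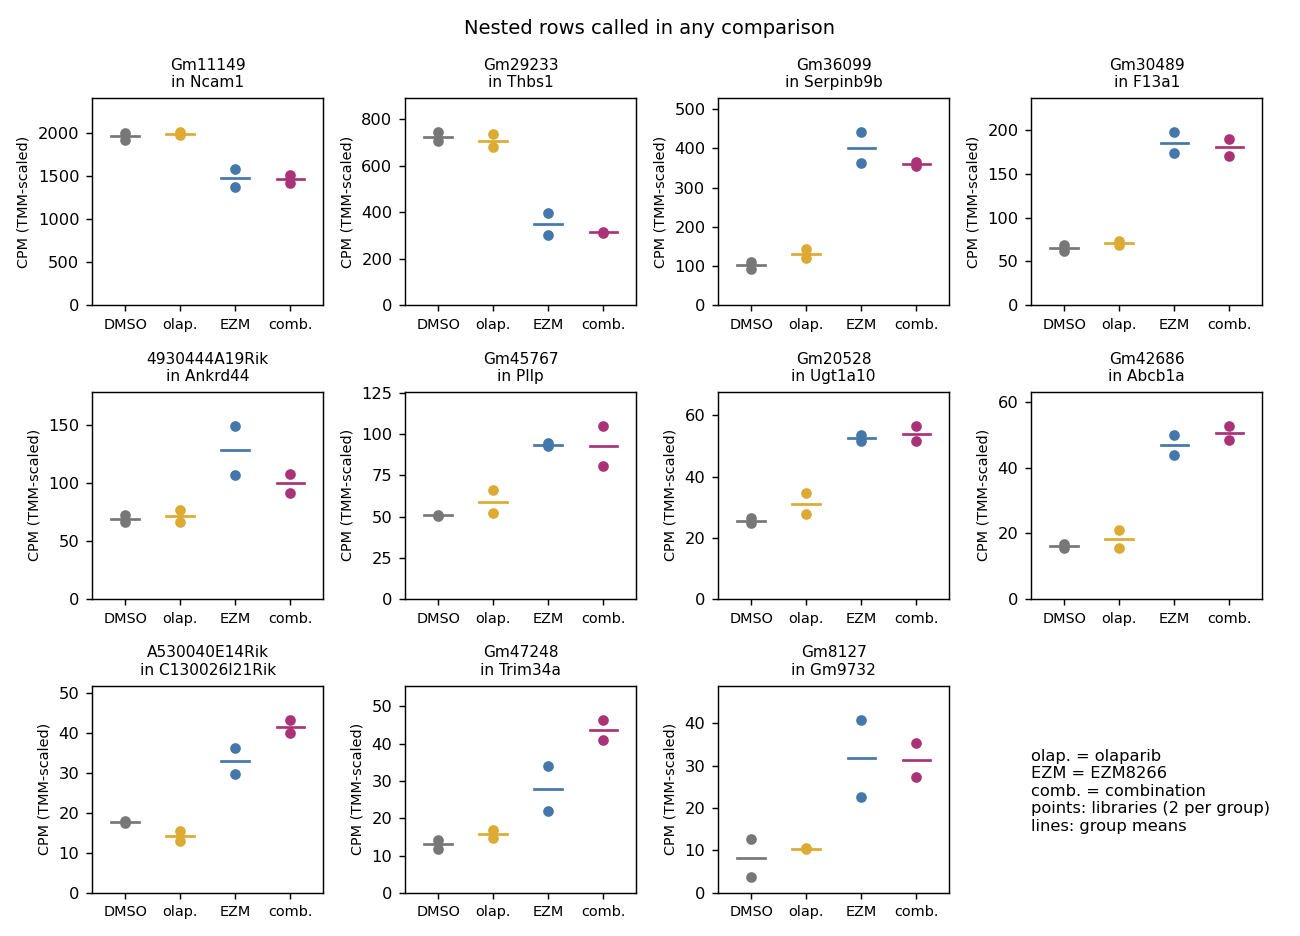
TMM-scaled CPM (vertical axes, from 0) of the 11 called nested rows in the 4 treatment groups (horizontal axes); points are the 2 libraries of a group and lines their mean. In each panel the libraries with EZM8266, alone or combined, do not overlap those without.

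A further 7 members were called in the EZM8266 average alone, and all 7 lost the call in 4 to 7 of the 8 fits that left out 1 library. Without DMSO replicate 1 and olaparib replicate 2 together, 6 of the 7 lost it, all but Gm8127. Ncam1, a cell adhesion molecule of the immunoglobulin family, held the one that fell. Gm11149, at chr9:49518288-49572591 with 417 bases over coding exons, had 2008 and 1920 CPM with DMSO, 1981 and 2009 with olaparib, 1378 and 1589 with EZM8266, then 1515 and 1416 with both. It fell by 0.42 on the log2 scale (SE 0.08, edgeR adjusted p = 0.0288), the smallest change among the calls and the most abundant row. The call was also lost with replicate number as a block (adjusted p = 0.0598) and with a filter of 1 CPM in 4 libraries (adjusted p = 0.0652).

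Gm47248 lay wholly over the 3′ untranslated region of Trim34a, a tripartite-motif protein, at chr7:104261465-104262174. It had 11.8 and 14.2 CPM with DMSO, 16.9 and 14.6 with olaparib, 34.05 and 21.9 with EZM8266, then 46.3 and 40.9 with both, so all libraries with EZM8266 were the higher ones. The EZM8266 average was 1.28 ± 0.23 (edgeR adjusted p = 0.0222). Pllp encodes plasmolipin, a membrane proteolipid of myelin and epithelia. Its row Gm45767, at chr8:94675606-94680166, had 50.9 and 50.6 CPM with DMSO, 66.2 and 52.0 with olaparib, 94.6 and 92.5 with EZM8266, then 104.8 and 80.9 with both. It rose by 0.76 ± 0.14 (edgeR adjusted p = 0.024). 4930444A19Rik in Ankrd44, a gene of an ankyrin-repeat protein, had 66.2 to 77.3 CPM without EZM8266 and 91.7 to 149.2 with it, a rise of 0.68 ± 0.14 (edgeR adjusted p = 0.0484). Its call was lost in DESeq2 (adjusted p = 0.0908).

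The other called rows were harder to assign. Gm20528, at chr1:88055393-88218584, lay over exons of 9 opposite-strand genes at the Ugt1a locus, whose enzymes attach glucuronic acid to drugs and bilirubin, and cannot be assigned to Ugt1a10 alone. It had 24.7 to 34.6 CPM without EZM8266 and 51.4 to 56.4 with it, a rise of 0.92 ± 0.17 (edgeR adjusted p = 0.0222). DESeq2 did not call it (adjusted p = 0.0796). A530040E14Rik in C130026I21Rik, at chr1:85105946-85114035, had 13.01 to 17.9 CPM without and 29.8 to 43.3 with EZM8266, a rise of 1.22 ± 0.21 (edgeR adjusted p = 0.0146). Gm8127 in Gm9732, at chr14:43288312-43293832, belongs to a family of near-identical copies and is uncertain. It had 3.71 to 12.7 CPM without and 22.7 to 40.8 with EZM8266, a rise of 1.81 ± 0.34 (edgeR adjusted p = 0.0288). Gm48682 in Nid1, a basement membrane protein, missed the threshold with 1.15 ± 0.24 (edgeR adjusted p = 0.0521). It was called under RLE scaling (adjusted p = 0.0454), under 3 other filters on low counts (0.0181 with 1 CPM in 4 libraries, 0.0419 with a mean count of 5, 0.00413 with none), with the crossed replicate block (0.00115) and without EZM8266 replicate 2 (0.0189).

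Grouped by the function of the host, members were few on each list of genes, and the lists had been chosen with earlier results of these data known. Serpins and coagulation held 4 members, 3 of them tested; 2 rose in the EZM8266 average, those in Serpinb9b and F13a1, with a median of 1.42 against -0.02 for all rows. 1110046J04Rik in Serpinb6a, the remaining tested member, was at 0.05 ± 0.11. Matrix and adhesion held 6 members with a median of -0.07; the 2 called were those in Thbs1 and Ncam1, both lower, whereas Gm2366 in Fat1, a giant cadherin, was at 0.02 ± 0.09 and Gm13372 in Col5a1, a fibrillar collagen chain, at -0.15 ± 0.10. Among membrane transporters Abcb1a was the only host.

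Interferon and antiviral genes held 3 members, 0 of them called by edgeR in the EZM8266 average, with a median of 0.32. Gm17334 in Irf1, an interferon-regulated transcription factor, had 174.8 to 189.1 CPM in the 4 libraries without EZM8266 and 218.3 to 244.7 in the 4 with it. These ranges did not overlap, but the difference of 0.33 ± 0.09 did not pass (edgeR adjusted p = 0.222). Gm11626 in Ifi35 was at 0.32 ± 0.16 and Gm15821 in Tap2, a subunit of the peptide transporter for antigen presentation, at 0.25 ± 0.21. Genes of histone H3 lysine 9 methylation and heterochromatin held 4 members, none called, with a median of -0.21. Gm26538 in Kdm3b, a demethylase of that residue, had 80.9 to 91.1 CPM without and 65.8 to 73.6 with EZM8266, a difference of -0.31 ± 0.12 that did not pass (edgeR adjusted p = 0.616).

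The remaining lists held no called member. The cytoskeleton list had 6 tested members in 5 hosts, all 6 above 0, with a median of 0.10; Gm47767 in Actn1, an actin-crosslinking actinin, was at 0.14 ± 0.08 and Gm26586 in Tpm4, a tropomyosin, at 0.19 ± 0.09. Cell cycle genes had 2, Gm17590 in Cdk6 at 0.02 ± 0.09 and Gm44985 in Plk1 at 0.00 ± 0.13, both hosts being cell cycle kinases. DNA break repair had 2, Gm15792 in Pole, a replicative polymerase, at 0.01 ± 0.15 and Desi1 in Xrcc6, a Ku subunit, at -0.33 ± 0.41. Signalling genes had 2, in Tgfb3 and Fgfr1, with a median of 0.30. Noncoding RNA hosts had 12 members, 10 of them tested, with a median of -0.09.

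Where 1 host held several nested rows with separate exons, the rows sampled the same transcript at different places. There were 40 such hosts, 35 of them with at least 2 tested rows, which gave 61 pairs. In the EZM8266 average the median absolute difference within a pair was 0.14 on the log2 scale. The SE of the difference took the 2 rows as independent, although they come from the same libraries. Its median was 0.34, and 60 pairs differed by no more than 2 SE. The exception was the pair in Adamts9, a secreted matrix protease: A730049H05Rik was at -0.62 and Gm15737 at -0.21. 10 of the pairs came from Gm26870. Without that host the median difference was 0.10 and the median SE 0.26 over 51 pairs. For olaparib all 61 pairs were within 2 SE, with a median difference of 0.20 and a median SE of 0.46.

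Most tested members lay near 0, with quartiles of -0.06 and 0.18, and pairs from different hosts were not compared, so these differences show nothing particular to rows that share a host. Pairs in the hosts with the most counts had small errors. In Mprip, a myosin phosphatase partner, 1700007J10Rik had 1231 to 1655 CPM and Gm12264 1542 to 1770, with EZM8266 averages of 0.01 ± 0.10 and 0.02 ± 0.08. In Malat1, an abundant nuclear noncoding RNA, the 2 rows were at 0.13 ± 0.09 and 0.12 ± 0.09 although their levels differed, at 6379 to 8665 and 2435 to 3320 CPM. In Hnrnpf, an RNA-binding protein, 4933440N22Rik was at -0.10 ± 0.08 and Gm43863 at -0.04 ± 0.08. In Pds5a, a cohesin partner, Gm42727 and Gm42729 were at 0.08 ± 0.10 and 0.01 ± 0.10. The 5 rows in Gm26870, on chromosome 9, were high in the 2 libraries that stood apart. Gm10718 had raw counts of 263 in DMSO replicate 1 and 328 in olaparib replicate 2, whereas the other 6 libraries held 16 to 77.

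**Figure D5:**
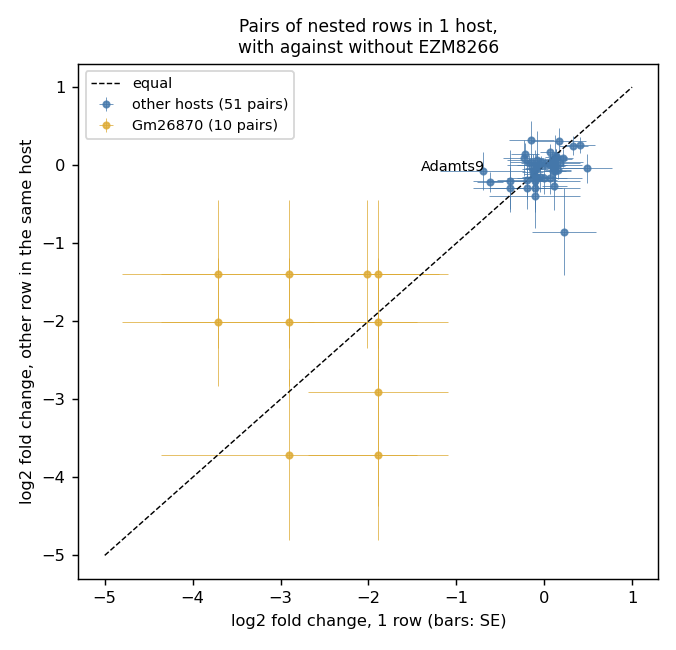
Log2 fold change of the EZM8266 average for 61 pairs of nested rows with separate exons in the same host, 1 row on each axis; bars are 1 SE and the dashed line marks equal values. The 51 pairs of other hosts cluster near 0, the 10 pairs of Gm26870 lie far below with wide bars, and the Adamts9 pair is the one beyond 2 SE.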

How the data were processed

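Counts per gene were deposited by the authors as 1 table: per the file headers, featureCounts from Subread 1.6.2 counted read pairs over exons of GENCODE vM18 with strand setting 1, and a fragment over several genes counted for each. HISAT2 2.1.0 and build mm10 are named in the submitters' processing notes. Strand of the kit is general knowledge, not stated in the labels. The deposited counts, 973382 to 1680974 per library, were used unchanged.

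Nested rows were found from the table's coordinates; names, biotypes and sequences came from GENCODE M21, which left 67 rows unnamed. Counts were tested with edgeR 4.0.16 (TMM, filterByExpr with a minimum count of 10 and total of 15, 4 group means, quasi-likelihood F test, Benjamini-Hochberg over 6379 rows), checked on simulated data; SE is the log2 fold change over the square root of F. DESeq2 1.42.0, other scalings, filters, left-out libraries and stricter membership were alternatives. Members and lists were chosen with earlier results of these data known. Rows named are those called, the 10 highest in CPM, pairs in the hosts with the most counts, members on the lists, and the extremes of overlap; Nid1, Gm26870, Adamts9, the H2A rows and rows with a denser host row were named after their values were seen. Same-numbered libraries did not deviate together in every pair of groups, so replicate numbers were not used as pairs.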

Additional observations from a re-analysis of the deposited data

How the results depend on the processing

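Counts of called members are given against the values reported: 0 for olaparib, 4 for EZM8266, 4 for the combination, 11 for the EZM8266 average and 0 for the interaction. With no low-count filter they were 2, 13, 10, 19 and 2, while 8, 42, 45, 83 and 7 of all 27896 rows were called. The average gained Gm10719, Gm10718, Gm11168 and Gm10721 in Gm26870, whose rows were high in the 2 libraries that stood apart. It also gained AY036118 and Gm42418 of the ribosomal RNA locus, Gm44359 and Gm48682. The olaparib calls were AY036118 and Gm44359, an H2A row with 68 and 433 raw counts in the DMSO libraries. With only the 2 groups compared EZM8266 gave 2, where 3 of 5819 rows were called. The combination gave 5, where 21 of 5397 rows were called. Without DMSO replicate 1 and olaparib replicate 2, EZM8266 gave 2 and the average 5. DESeq2 gave 3 for EZM8266, 4 for the combination and 9 for the average, while 15, 16 and 37 of all 6379 rows were called. It gave no adjusted p for 73 members with EZM8266 and for 59 with the combination. With at least 50% of exon bases over host exons required, 325 members were tested. The counts were then 1, 1 and 3 for EZM8266, the combination and the average, while calls over all 6379 rows stayed at 13, 14 and 42. Of the 11 members called in the main fit, 8 had under 25% of their exon bases over host exons. Among the 765 members tested, 292 (38.2%) did. Leaving out 1 library at a time gave 4 to 16 for the average, 3 to 5 for EZM8266 and 3 to 5 for the combination, and 0 for the others; the average fell to 5 without DMSO replicate 1, DMSO replicate 2 or olaparib replicate 1, and to 4 without olaparib replicate 2 or combination replicate 1. In the fits with libraries left out, calls over all tested rows fell where those of the members fell and rose where they rose. These swings are thus not particular to the nested rows. The cause of these changes was not tested.

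With replicate number as a block the counts were 0, 3, 4, 10 and 0, while calls over all 6379 rows were 0, 10, 15, 39 and 0. Deviations of same-numbered libraries correlated at -0.305 to -0.143 for pairs with DMSO and at 0.212 to 0.287 for the others. The sign was thus negative in every pair with DMSO and positive in the rest, and the numbers were not used as pairs. Whether the DMSO numbers are crossed was not tested. With them crossed, added after seeing the data, the block gave 22 for EZM8266, 20 for the combination, 35 for the average and 1 for the interaction, while calls over all 6379 rows were 84, 73, 133 and 3.

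Of 4474 alternative values of named rows, 68 lost and 33 gained a call, none reversed among called rows, and 271 changed sign in rows called in neither setting. With a median SE of 0.22 for tested members, or 0.145 for the 318 with a mean count of at least 100, small differences in low rows were not detectable at this depth.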
